A study of Rattus norvegicus with 12 samples.

Results

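Leg muscle and back muscle of Long-Evans rats were compared in the 3 columns coded WT of the leg table and the 3 columns coded WT of the back table, 6 of the 12 columns of counts in the series. The columns were taken by their headers, which name the muscle, the code and a number from 1 to 3, and the tables were joined on the gene identifier. The series describes muscle from the site of an implantation or surgery, either injected with a magnetic fluid (MFIT) or given no treatment or sham surgery (NT), 7 or 14 days after surgery. The labels list 6 samples of each muscle, all of the genotype WT (Long-Evans), and the other 3 columns of each table carry the code ST. The headers do not use MFIT or NT, so the code WT is given no treatment name here, and whether the WT columns hold injected or control muscle is not known. The 2 tables separate the muscles, and the labels give no collection day for a sample, so muscle, table and a possible difference in day cannot be told apart in any result that follows.

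Skeletal muscles of different sites differ in their mixture of slow and fast fibres, in how they obtain energy, and in the position in the embryo from which their cells arose. A small number of very abundant transcripts, for contractile proteins and for energy supply, make up much of the RNA of a fibre. A bulk library adds fibres to connective tissue, vessels, nerve and immune cells, and in such libraries fewer cells of a type and less RNA per cell cannot be told apart. All gene identifiers in the tables were mouse Ensembl identifiers, although the animals were rats, and the files do not pair them with gene names. Genes are therefore described here by their abundance, their difference and their pattern over the columns, and 4 identifiers are printed. The muscle label could not be checked against muscle marker genes for the same reason. Back and leg are therefore the names that the headers give, and an exchange of tables or headers would not have been seen here.

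The WT columns held 3723859 to 6483236 gene counts in back muscle and 3577906 to 5327056 in leg muscle, and these ranges overlapped. Unmapped reads made up 54.6% to 57.7% of the reads in back columns and 56.2% to 57.7% in leg columns, also overlapping. Reads assigned to a gene were 32.4% to 34.6% in back columns and 33.0% to 33.9% in leg columns. All shares of counts, genes detected and counts of 0 given here cover only these reads. Whether the rat reads were aligned to a mouse genome is not stated, and its bearing on the unmapped share was not tested. Reads classed as ambiguous between genes were 6.82% ± 0.345 (SD, n = 3) in back and 6.05% ± 0.329 (SD, n = 3) in leg, and here the groups did not overlap. The exact permutation test, two-sided, gave p = 0.1, the smallest value that 3 against 3 columns allow. In all, 11 such library measures were tested, and for the 7 that did not overlap the Benjamini-Hochberg adjusted value of the exact p was 0.157. Whether counting used strand, and how reads shared by near-identical genes were counted, is not stated, so a difference for an overlapping or copied gene is uncertain. Among the libraries, back WT1 stood apart from its fellows in 5 genes, and the 3 back ST columns differed widely from one another.

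Back muscle drew more of its counts from few genes than leg muscle did. The single most abundant gene of each column took 9.63%, 10.3% and 9.97% of the gene counts in back WT1, WT2 and WT3. In leg WT1, WT2 and WT3 it took 6.05%, 6.10% and 5.81%. The groups were far apart relative to their spread, and every back column lay above every leg column. The 10 most abundant genes together held 37.5% ± 0.761 (SD, n = 3) of the counts in back and 30.7% ± 0.560 (SD, n = 3) in leg. The number of genes needed to reach 50% of the counts was 26, 25 and 23 in the back columns and 43, 48 and 48 in the leg columns. Each of these 3 measures separated the groups without overlap, with an exact two-sided permutation p = 0.1, the smallest that this design can give.

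**Figure D1:**
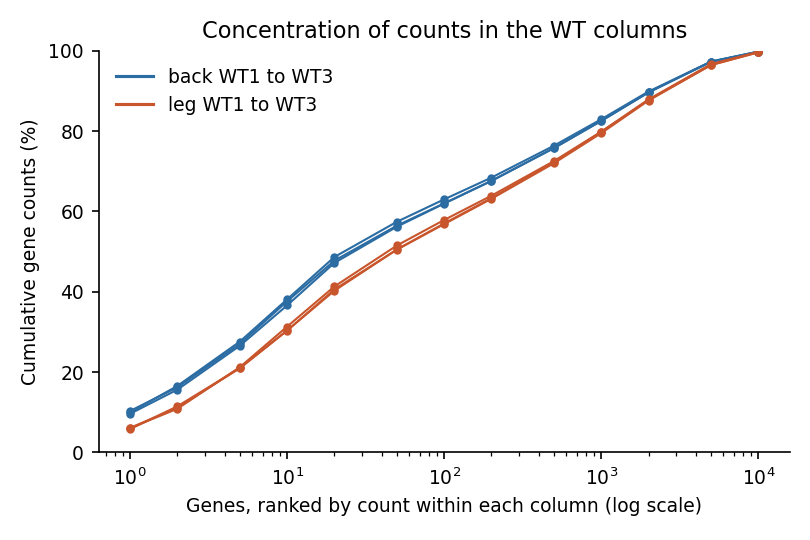
Cumulative share of gene counts (y axis, percent) against the rank of the gene within its column (x axis, log scale) for the 3 back WT columns (blue) and the 3 leg WT columns (orange). At rank 10 the back columns reach 36.6% to 38.1% and the leg columns 30.3% to 31.3%, and the curves come together towards 10000 genes.

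Leg muscle also showed counts for more genes. Of the 56953 genes listed, 18845 had at least 1 count in the WT columns. A count above 0 was found for 14715, 14870 and 14147 genes in back WT1 to WT3, and for 15911, 14422 and 15867 genes in leg WT1 to WT3. These ranges overlapped, since leg WT2 was the shallowest column. After every column was thinned at random to 3577906 counts, the depth of leg WT2, the back columns held 14100, 13838 and 14072 genes and the leg columns 15301, 14422 and 15073. At equal depth the groups no longer overlapped (exact two-sided permutation p = 0.1). The genes with 0 counts in all 3 columns of one muscle and at least 3 counts in each column of the other numbered 18 for leg and 2 for back. With at least 10 counts in each column the numbers were 6 and 0. A count of 0 over the 3 back columns allows a level of up to 0.199 CPM (counts scaled to a common library total), and over the 3 leg columns up to 0.219 CPM, taking 3 counts as the limit and counting error only.

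In a test across all genes, 2246 of 9640 genes tested differed between leg and back muscle, which is 23.3% (edgeR quasi-likelihood test, Benjamini-Hochberg adjusted p under 0.05). Of these, 1113 genes (11.5% of those tested) were higher in leg and 1133 (11.8%) were lower. The levels of 2166 of the 2246 genes did not overlap between the 3 leg and the 3 back columns, or 96.4%, against 37.4% of all genes tested. The direction balance depends on how the columns are scaled. Scaled by total count alone, 2456 genes were higher in leg and 478 lower, so that 83.7% of the calls were rises, against 49.6% with TMM scaling, which sets the typical gene of each column level. The change of scale moved the median gene by 0.22 on the log2 scale, and the calls and fitted log2 differences given here are relative to the TMM level. Shares of counts, summed CPM differences and ratios of counts are scaled by total gene count. Leaving out each WT column in turn gave 883 to 1076 genes higher and 881 to 1034 lower.

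The 2 directions differed in size. The median called rise in leg was 0.87 on the log2 scale, and the median called fall was -0.55. A difference of at least 2-fold was reached by 491 of the genes called higher in leg (5.09% of the genes tested) and by 136 of those called lower (1.41%). A difference of at least 4-fold was reached by 158 rises and 27 falls, and one of at least 8-fold by 67 rises and 10 falls. Rises were thus about as numerous as falls at the threshold, and outnumbered them at each larger fold listed. Counts for the 4-fold and 8-fold differences include genes near 0 in one muscle, whose fitted fold depends on the small count that edgeR adds.

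The genes called lower in leg were mostly abundant ones, whereas rises were spread evenly over the levels. The genes tested were divided into 5 equal bins of 1928 genes by their mean level over the 6 columns. In the lowest bin, from 1.18 to 4.48 CPM, 216 genes were called higher in leg and 49 lower. In the middle bin, from 9.75 to 21.0 CPM, the numbers were 219 and 176. In the highest bin, above 55.7 CPM, they were 252 and 536. The share of rises among the calls fell from 81.5% through 69.4%, 55.4% and 43.4% to 32.0% from the lowest to the highest bin. The share of genes called grew over the same bins from 13.7% to 40.9%, and the median called difference shrank from 1.54 to 0.45 on the log2 scale. The excess of falls among abundant genes holds only relative to the TMM level. Scaled by total count alone, rises outnumbered falls in every bin, with 347 against 31 in the lowest and 654 against 233 in the highest. Of the 10 most abundant genes, 9 were called, 1 higher and 8 lower. Of the 100 most abundant, 14 were called higher and 49 lower. With total counts the numbers were 2 and 5 for the 10 most abundant and 29 and 31 for the 100 most abundant.

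**Figure D2:**
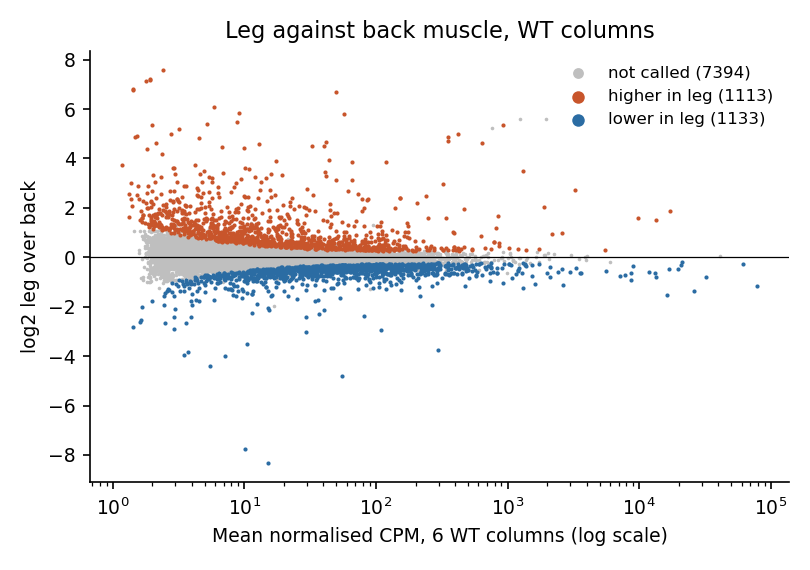
Difference between leg and back muscle (y axis, log2 leg over back) against the mean level over the 6 WT columns (x axis, TMM-normalised CPM, log scale), 1 point per gene tested. The 1113 genes called higher in leg (orange) reach large differences at low levels, the 1133 called lower (blue) crowd close to 0 at high levels, and grey genes were not called.

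The genes called carried most of the RNA counted. The 1133 genes lower in leg made up 60.6%, 60.9% and 61.2% of the gene counts in the back columns. In the leg columns the same genes made up 44.4%, 44.4% and 45.2%. The 1113 genes higher in leg made up 6.83%, 6.37% and 6.73% of the counts in the back columns and 17.6%, 17.1% and 16.5% in the leg columns. These shares describe the genes the test had chosen and are no further test. The exchange was concentrated: in each direction, 4 genes accounted for 50% of the summed CPM difference of the genes called. The gene with the largest fall in leg fell by 47487 CPM, or 29.3% of the sum of falls. The gene with the largest rise rose by 22376 CPM, or 21.5% of the sum of rises.

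The identifiers printed are the 2 with the largest rise and the 2 with the largest fall in leg muscle among the genes called, with a mean of at least 5 CPM and no overlap between the groups. ENSMUSG00000037139.16 had 4, 7 and 2 counts in back WT1, WT2 and WT3 and 487, 388 and 567 counts in leg WT1, WT2 and WT3. Every leg column exceeded every back column by a wide margin. Its level was 0.877 ± 0.287 CPM (SD, n = 3) in back and 98.1 ± 2.95 CPM (SD, n = 3) in leg, with a fitted difference of 6.68 on the log2 scale and an edgeR adjusted p = 2.93e-16. The difference of the mean log2(CPM + 1) values, a scale that compresses low levels, was 5.73 ± 0.131 (SE). ENSMUSG00000027016.18 had 2, 0 and 0 counts in the back columns and 54, 51 and 64 in the leg columns. With 2 counts in all in back muscle, the ratio of leg to back was 93.2, with a 95% exact interval from 25.4 to 775.5 that covers counting error only (edgeR adjusted p = 3.38e-09). Without back WT1, which held both of these counts, the fitted log2 difference moved from 6.09 to 8.80.

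ENSMUSG00000062713.9 showed the opposite pattern, with 114, 195 and 111 counts in back WT1 to WT3 and 0, 1 and 0 in leg WT1 to WT3. The ratio of back to leg was 381, with a 95% exact interval from 68.0 to 15082.7 for counting error (edgeR adjusted p = 1.22e-12). ENSMUSG00000001656.4 had 70, 135 and 77 counts in the back columns and 0, 1 and 0 in the leg columns. Its ratio of back to leg was 256, with a 95% exact interval from 45.5 to 10138.6 (edgeR adjusted p = 5.10e-11). Without leg WT2, which held the single leg count of each gene, the fitted log2 differences moved from -8.32 to -10.23 and from -7.74 to -9.65, and such values depend on the small count that edgeR adds. Both genes were thus present in all 3 columns headed back and near the limit of detection in the 3 columns headed leg.

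**Figure D3:**
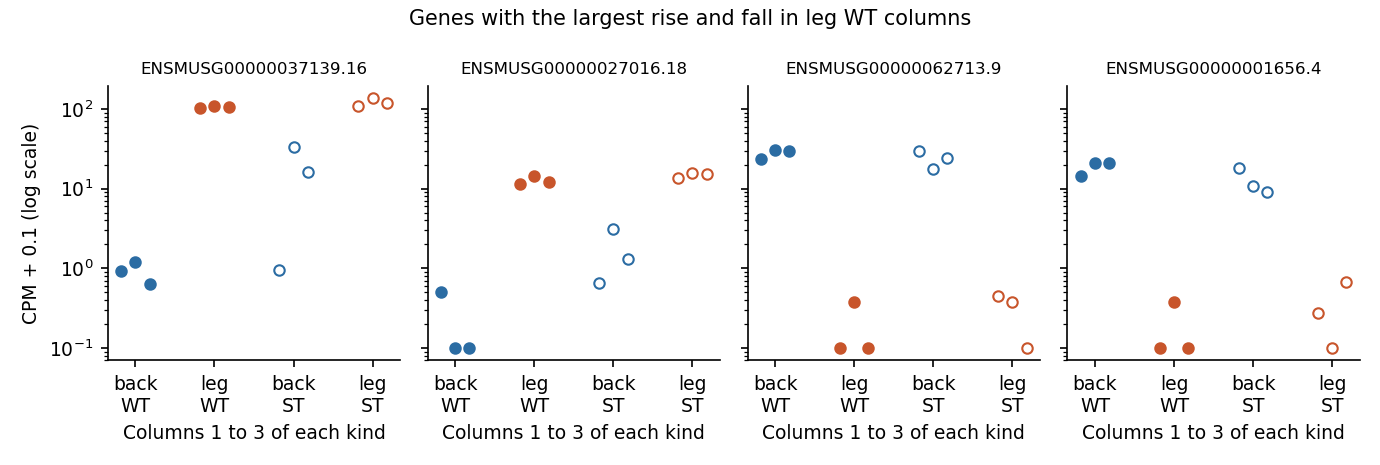
Level of the 4 printed genes (y axis, CPM + 0.1, log scale, scaled by total gene count) in the 3 columns of each kind: back (blue), leg (orange), WT (filled), ST (open). The WT groups do not overlap for any of the 4 genes, and in the ST columns back ST2 and ST3 lie above all 3 back WT columns for the first and second gene.

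Of the 188 tested genes, at any level and in either direction, that differed by at least 4-fold in the fit, 185 were called and 3 were not, and these 3 were abundant in leg muscle. The most abundant of them stood at 3960, 3962 and 3635 normalised CPM in leg WT1 to WT3 and at 226, 8.63 and 4.999 in back WT1 to WT3. Its fitted difference was 5.59 on the log2 scale with an edgeR adjusted p = 0.0864. The second stood at 142, 4.31 and 6.18 in the back columns against 2775, 2387 and 2135 in the leg columns (edgeR adjusted p = 0.0683). The third stood at 110, 5.47 and 3.53 against 1633, 1477 and 1345 (edgeR adjusted p = 0.0625). In all 3 genes the groups did not overlap, and back WT1 was far above back WT2 and WT3. Without back WT1 all 3 were called, with edgeR adjusted p-values of 8.46e-17, 2.28e-15 and 4.09e-16. With all 6 columns, limma-voom also called them, at adjusted p-values of 1.21e-06, 9.83e-07 and 1.08e-06, as did DESeq2 at 0.00169, 0.000914 and 0.00168. These 3 genes were picked after their values were seen, and their identifiers are not printed for lack of names.

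Back WT1 stood apart in few genes. Of 7458 genes with a mean of at least 5 CPM, 5 were at least 4-fold higher in back WT1 than in both other back columns, on a log2(CPM + 1) scale, and all 5 were also at least 4-fold higher in leg than in back. The other 5 WT columns had 0 such genes. In the other direction, 1 gene was at least 4-fold lower in back WT3 than in both its fellows, and none in any other WT column. Over all genes tested, the columns of a muscle were much alike. The median SD of a gene over the 3 columns was 0.159 in back and 0.173 in leg on the log2(CPM + 1) scale. The root mean square difference between 2 columns of the same muscle was 0.337 to 0.354 in back and 0.337 to 0.386 in leg, whereas between a leg and a back column it was 0.617 to 0.702. No 2 WT columns of a muscle agreed to within counting noise, since their counts differed by at least 2.58 times the variance that counting alone gives in back and 2.93 times in leg.

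The ST columns, which had no part in choosing these genes, were used to see whether the same muscle contrast appeared in other libraries. Back ST1 stood apart from back ST2 and ST3. For each column a position was computed over the 2246 genes called, with 0 at the mean of the back WT columns and 1 at the mean of the leg WT columns. The leg ST columns lay at 1.03, 1.08 and 1.13, close to the leg WT columns. Back ST1 lay at 0.05, close to the back WT columns, but back ST2 lay at 0.78 and back ST3 at 0.56, nearer to leg. Gene by gene, 17.2% of the 2246 genes were nearer to the leg mean than to the back mean in back ST1, 75.2% in back ST2 and 62.4% in back ST3, against 87.0% to 88.7% in the leg ST columns. The number of genes needed for 50% of the counts ran the same way, at 23, 60 and 50 in back ST1, ST2 and ST3 and at 67 to 88 in the leg ST columns. What underlies the split of the back ST columns was not tested. The labels tie none of these columns to a sample or a collection day, so the identity of back ST2 and ST3 could not be checked, and every result of the ST columns carries that doubt.

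**Figure D4:**
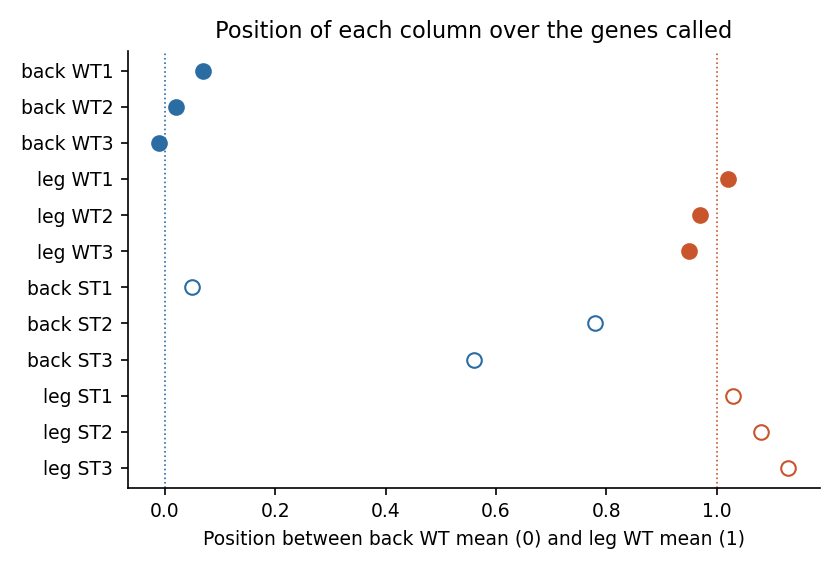
Position of each of the 12 columns (x axis, no unit) on the line from the mean of the back WT columns (0) to the mean of the leg WT columns (1), over the 2246 genes called in the WT columns; filled points are WT columns, which chose the genes and are placed against the means of the other columns, and open points are ST columns. The leg ST columns lie at 1.03 to 1.13, back ST1 at 0.05, back ST3 at 0.56 and back ST2 at 0.78.

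The contrast of leg against back in the ST columns called 246 of 9782 genes, or 2.51% (edgeR quasi-likelihood test, adjusted p under 0.05). Of these, 186 were also called in the WT columns, all 186 in the same direction. They were 8.28% of the genes called in the WT columns and 75.6% of those called in the ST columns. Of the 2209 WT calls tested in both, 1906 or 86.3% had the same sign in the ST columns, against 62.6% of the genes not called in the WT columns. The median ST difference was 0.40 for the genes called higher in leg and -0.31 for those called lower, beside WT medians of 0.85 and -0.54 over the same genes. The genes were chosen by their WT differences, which makes the WT medians too large, so the gap between the medians is no test of a difference. The number of ST calls rose or fell as single columns were left out. Without back ST1 they numbered 641. The share of same signs then fell to 70.8%, against 56.85% of the genes not called in the WT columns. Of the 372 genes then called in both, 321 had the same direction and 51 the opposite one, and the median ST differences were 0.28 and -0.14. Without back ST2 the ST calls numbered 563, and without back ST3 they numbered 197. Without leg ST1, ST2 or ST3 they numbered 107, 31 or 39.

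A test of whether the muscle difference itself differed between the WT and ST columns called 0 of 10450 genes, or 0% (edgeR interaction test on all 12 columns, adjusted p under 0.05). At an unadjusted p under 0.05 it gave 1018 of the 10450 genes. DESeq2, whose fit held 20341 genes, called 57 of them (adjusted p under 0.05). Without back ST1, left out after the data were seen, the edgeR test called 662 of 10748 genes, or 6.16%. That column was the only back ST column close to the back WT columns, so these calls are no independent test. The absence of calls with all 12 columns does not show that the contrasts were alike.

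**Figure D5:**
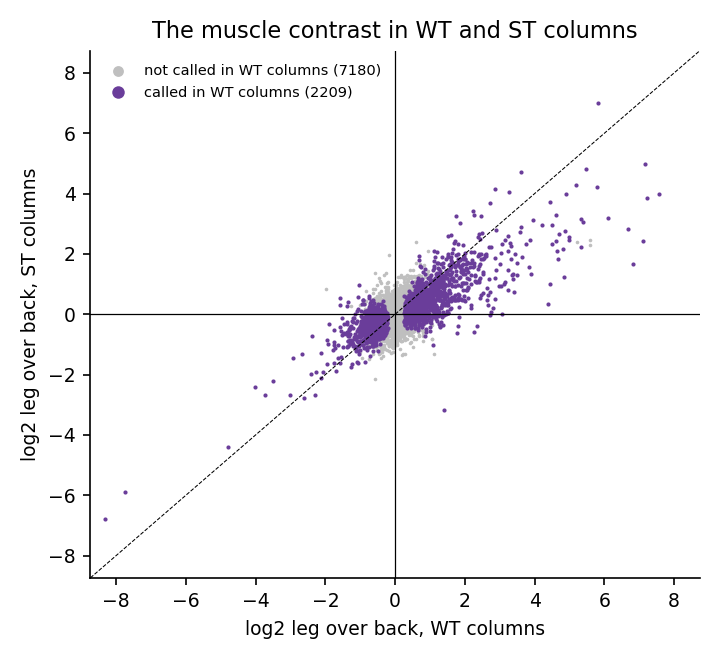
Difference between leg and back muscle in the ST columns (y axis, log2) against that in the WT columns (x axis, log2), 1 point per gene tested in both; purple genes were called in the WT columns and the dashed line marks equal differences. Of the 2209 purple genes, 1906 have the same sign on both axes, and the genes were chosen by their values on the x axis.

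The 4 printed genes differed in where their back ST columns lay. ENSMUSG00000037139.16 stood at 0.837, 33.0 and 15.9 CPM in back ST1, ST2 and ST3 and at 109, 135 and 117 CPM in leg ST1 to ST3. The groups did not overlap, but back ST2 and ST3 lay well above the back WT columns, which held 0.537 to 1.08 CPM. Its difference in the ST columns was 2.83 on the log2 scale and was not called (edgeR adjusted p = 0.231). Its interaction of muscle and code was -3.82 on the log2 scale with all 12 columns (edgeR adjusted p = 0.405) and -4.44 without back ST1 (edgeR adjusted p = 7.64e-07). ENSMUSG00000027016.18 stood at 0.558, 3.00 and 1.21 CPM in back ST1 to ST3 and at 13.4, 15.5 and 15.0 CPM in leg ST1 to ST3 (edgeR adjusted p = 0.00278). Its interaction was -2.91 with all 12 columns (edgeR adjusted p = 0.254) and -3.33 without back ST1 (edgeR adjusted p = 0.0126). The printed genes were chosen by their WT differences, which enter the interaction. Back ST1 was left out after the data were seen, so these interactions are no independent test.

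The genes scarce in leg muscle were scarce in all 6 leg columns. ENSMUSG00000062713.9 had 211, 59 and 121 counts in back ST1 to ST3 and 2, 1 and 0 in leg ST1 to ST3 (edgeR adjusted p = 0.000464). ENSMUSG00000001656.4 had 129, 36 and 44 counts in back ST1 to ST3 and 1, 0 and 2 in leg ST1 to ST3 (edgeR adjusted p = 0.00451). Their interactions were not called with all 12 columns, at edgeR adjusted p-values of 0.809 and 0.808, or without back ST1, at 0.499 and 0.356. In CPM, the first gene stood at 29.5, 17.7 and 24.3 in back ST1 to ST3, beside 23.3 to 30.1 in the back WT columns. The second stood at 18, 10.8 and 8.85, beside 14.3 to 20.8, so back ST2 and ST3 lay below all back WT columns. No leg column of either gene exceeded 0.577 CPM. For both genes back ST2 and ST3 thus remained on the side of the back WT columns, although their position over all called genes was nearer to leg.

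The 3 abundant genes that were not called in the WT columns differed most among the back ST columns. The most abundant was at 0.419, 1643 and 542 CPM in back ST1, ST2 and ST3 and at 4202, 4507 and 4264 CPM in leg ST1 to ST3. The second was at 1.12, 1081 and 365 CPM in the back ST columns and at 2566, 2667 and 2496 in the leg ST columns. The third was at 0.279, 567 and 199 against 1370, 1482 and 1447. In each, all 3 leg ST columns were above all 3 back ST columns, and back ST2 was the highest of the back columns of either code. None of the 3 was called in the ST columns, with edgeR adjusted p-values of 0.597, 0.586 and 0.561.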

How the data were processed

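The deposited tables hold gene counts, whole numbers per gene and column, which the authors made from paired-end reads aligned with STAR, per the labels and the series' design text; DESeq2 is named in the submitters' processing notes, and for the genome build the sources used here name none. The 4 rows of read classes were left out of library sizes and tests. Columns were grouped by the muscle in their header, and all 12 were used. Identifiers were looked up in the RefSeq table of the rat assembly GRCr8, which lists an Ensembl identifier for 0 of 47357 genes; 0 of 56953 matched. The fixed gene lists, the marker lists and the rule for named genes, which asks for a symbol, could therefore not be applied; the rule without the symbol gave the printed identifiers, 2 in each direction. Members and lists were chosen with earlier results of these data known.

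Counts were tested with edgeR 4.0.16 (R 4.3.3, filterByExpr, TMM, robust quasi-likelihood fit, adjusted p under 0.05). The fit was also run on simulated data in which 200 genes were changed, as many up as down. That run does not bear on how the direction balance of the real calls depends on scaling. DESeq2 1.42.0 and limma 3.58.1 (voom) were alternatives. Tests of library values were exact two-sided permutation tests. SEs are of the difference of mean log2(CPM + 1). Positions are projections of log2 CPM with a prior count of 2. The labels call the samples biological replicates; the animals are not named, so p-values measure the spread between these libraries.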

Additional observations from a re-analysis of the deposited data

Results flagged for a closer look

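The muscle difference of the WT columns and that of the ST columns differed by a test of the difference itself in 662 of 10748 genes when back ST1 was left out (edgeR interaction test). That choice was made after the data were seen. Back ST1 lay at a position of 0.05, close to the back WT columns, and the back ST columns kept lay at 0.78 and 0.56. The 662 calls are therefore no independent test. With all 12 columns DESeq2 called 57 of 20341 genes, 10 with a larger leg over back value in the ST columns and 47 with a smaller one. The edgeR test on all 12 columns called 0, and leaving out any other ST column also gave 0. Groups of 3 columns are too small for a test of single outlying columns.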

How the results depend on the processing

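For the WT columns, scaling by total count alone gave 2456 genes higher in leg and 478 lower, and a limit of 2-fold gave 491 and 136. DESeq2 gave 732 higher and 802 lower, and the fit on all 12 columns 762 and 661. The other normalization, both filters and limma-voom stayed within 1.5 times of the reported counts. Of the 2246 genes called, 2231 remained called with RLE size factors, 1591 with total counts, 1458 with DESeq2 and 1362 with all 12 columns. All 2246 kept their direction with RLE size factors, DESeq2 and all 12 columns, and 2243 did so with total counts. Leaving out a WT column gave 883 to 1076 genes higher and 881 to 1034 lower, and 1636 to 1884 of the 2246 remained called. The 4 printed genes kept their direction and their call under all 14 alternatives, while the fitted sizes of 3 of them moved when back WT1 or leg WT2 was left out, as given with those genes.

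For the ST columns, leaving out a column gave 31 to 641 calls, and DESeq2 gave 366. The interaction gave 57 with DESeq2 and 0 to 662 with an ST column left out, a choice made after seeing the data.

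Whether the numbers in the headers pair the columns by animal is not stated. Deviations of same-numbered leg and back columns correlated at 0.06, 0.19 and -0.09 for the WT columns, and not every column correlated best with its own number. Such correlations cannot decide whether 2 columns came from the same animal. With the number as a replicate block, 1113 genes were higher and 1162 lower in the WT columns, and 320 genes were called in the ST columns. The alternative without mitochondrially encoded genes and the medians of gene lists were not run, because genes could not be named. In the lowest bin of levels, from 1.18 to 4.48 CPM, the median called difference was 1.54 on the log2 scale; calls were not compared across depths.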
